A study of Mus musculus with 6 samples.

Results

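The genes examined here encode the core of the TGF-beta signaling pathway in regulatory T (Treg) cells, the CD4+ T lymphocytes that restrain other immune cells. They comprise the receptors Tgfbr1 and Tgfbr2, the signal transducers Smad2, Smad3 and Smad4, the inhibitors Smad7 and Smurf2, and the nuclear co-repressors Ski, Skil and Tgif1. They were chosen as members of the pathway by gene symbol. All 10 had 1 named probe set each among the 19505 genes with a symbol on the array. Expression was measured on 6 mouse Clariom S arrays, which give 1 signal for each probe set. The control arrays (n = 3) held CD4+YFP+ Treg cells of Foxp3Cre/wt mice, and the deficient arrays (n = 3) held those of mice that in addition carried floxed alleles of both target genes (Ube2m fl/fl and Ube2f fl/fl). All cells were sorted from peripheral lymph nodes and spleens. Ube2m and Ube2f are the E2 enzymes of neddylation, the attachment of the ubiquitin-like protein NEDD8, which activates cullin-RING ubiquitin ligases. In both groups the YFP-Cre was driven from the Foxp3 locus, and the mice were females in which the other X chromosome carried the wild-type Foxp3 allele, so that unsorted Treg cells remained normal. The mice were 8 to 12 weeks old, and each array held a pool of 2 to 3 mice, so that p-values reflect the spread between pools.

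TGF-beta binds a type II receptor, which recruits and phosphorylates a type I receptor. The active type I receptor phosphorylates the receptor-activated SMADs, which join SMAD4 and enter the nucleus to regulate transcription, while SMAD7 with SMURF ligases acts on the receptors, and SKI, SnoN (encoded by Skil) and TGIF1 hold back SMAD-dependent transcription. In T cells this pathway supports Foxp3 expression in peripherally induced Treg cells and restrains effector responses. Several of its proteins are turned over by ubiquitin ligases.

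The targeted gene Ube2f had a log2 signal of 11.88 ± 0.05 in control and 9.75 ± 0.06 in deficient Treg cells (SD, n = 3 each), a difference of -2.13 (deficient minus control, adjusted p = 0.000263). Whether its probes lie in the deleted exons is not known here, and Ube2m was not analysed. Markers of T cells were bright on each array, with list means from 14.68 to 15.07 over 10 measured genes. All 10 skeletal muscle genes were at or under the silent-gene level, which is the 95th percentile of 1091 olfactory receptor genes (a log2 signal of 5.39), although the sample titles name muscle. Of 10 Treg markers 8 were measured and Foxp3 was not analysed here. Their mean was 13.38 to 13.67 in control and 12.13 to 12.29 in deficient arrays. At an adjusted p under 0.05, 4 were lower (Ctla4, Ikzf2, Itgae and Capg) and 0 higher. Of genes above the silent-gene level 4.07% were lower and 1.19% higher. The largest falls, of Itgae (-5.02) and Capg (-2.10), weigh heavily in the mean. Il2ra had a positive difference (0.60), and Tnfrsf4 (-0.84), Tnfrsf18 (-0.35) and Lrrc32 (-0.06) negative ones, none of them called. The deviations of control array 1 and deficient array 2 from their group means had a Pearson correlation of 0.44 across all probe sets. That was the highest of the pairs of a control and a deficient array, and control array 1 with deficient array 3 had -0.43. Probe sets are not independent, and deviations within a group are tied to one another. The correlation therefore does not show that either array stood apart. Deficient array 2 had a mean of 7.08 over 6 markers of CD8 T and NK cells. The other deficient arrays had 5.47 and 5.48, and the controls 5.08 to 5.97. The killer cell granzyme gene Gzma reached 9.65 on deficient array 2, and Klrb1c (7.71), Ncr1 (5.59) and Klrd1 (5.13) were also highest there. Cd8a (5.56, against 5.75 on control array 1) and Cd8b1 (8.81, against 9.62 on deficient array 1) were not. The mean of deficient array 2 over 8 myeloid markers was 4.64, and that of deficient array 3 was 4.42. The other 4 arrays lay between 3.74 and 3.85, with 6 of the 8 markers at or under the silent-gene level on each array. The part of these cells in the results was not tested, and values without deficient array 2 are given for some of the genes.

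Tgfbr1, the type I receptor kinase, was the only member with an adjusted p under 0.05 in limma on all arrays. Its log2 signal was 12.25, 11.88 and 11.66 on the control arrays and 10.95, 11.06 and 10.96 on the deficient arrays. The lowest control value was 0.60 above the highest deficient value, and the deficient arrays lay close together. The group means were 11.93 ± 0.30 in control and 10.99 ± 0.06 in deficient cells (SD, n = 3 each). All differences are given as deficient minus control on the log2 scale, and that of Tgfbr1 was -0.94 (standard error 0.20, 95% confidence interval -1.39 to -0.49), or 1.92-fold lower. In limma, fitted over all 22206 probe sets with Benjamini-Hochberg adjustment, the adjusted p = 0.0451 was just under the threshold of 0.05. The call ended whichever array was left out (adjusted p from 0.0625 to 0.152, with differences from -1.08 to -0.78). It also ended with quantile normalization (adjusted p = 0.0598) and with median centring (adjusted p = 0.0650). The sign was negative in all 15 alternatives, which adds little. Several of them keep the same difference, and with separate groups leaving out arrays could not turn it. In bulk arrays a lower signal cannot be told apart as fewer expressing cells or as less RNA per cell.

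Tgfbr2, the type II receptor that binds the ligand, had log2 signals of 11.89, 12.11 and 11.99 in control and 11.66, 11.73 and 11.54 in deficient arrays. The groups did not overlap, although the gap was 0.16. The difference of -0.35 (standard error 0.17, interval from -0.74 to 0.03) did not pass the test, with an adjusted p = 0.446. Both receptors reached p = 0.1 when the array labels were permuted exactly (two-sided), and 3 against 3 arrays cannot give a lower value.

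The promoter of Tgfbr1 is shown because Tgfbr1 was the only member past the threshold. The sequence holds the 250 bases before the more upstream of its annotated starts (RefSeq, GRCm38.p6, chr4:47352972-47353221, plus strand), with matches to the GC-rich SMAD site GGCGC on either strand in capitals.
Tgfbr1: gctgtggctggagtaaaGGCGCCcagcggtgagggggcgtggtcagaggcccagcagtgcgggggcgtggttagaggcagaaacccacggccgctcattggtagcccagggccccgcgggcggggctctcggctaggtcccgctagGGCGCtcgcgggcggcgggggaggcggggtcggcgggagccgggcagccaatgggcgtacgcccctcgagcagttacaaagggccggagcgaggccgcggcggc
This window had 2 separate matches, the nearer one 99 bases before the start, and 74.8% G and C. The letters GGCGC or their reverse complement were found in 32.0% of 32851 such windows of 27025 genes, so a match is common. Promoters of 6 members were matched by symbol, namely Tgfbr1, Tgfbr2, Smad3, Smurf2, Ski and Tgif1, and Smad2, Smad4, Smad7 and Skil were not among them. GGCGC was found for 4 of the 6 (Tgfbr1, Ski, Smurf2 and Tgif1). The CAGA box CAGACA was found for Tgif1 and, at its other annotated start, for Tgfbr1, against 17.1% of all windows. It contains, on the opposite strand, the core letters GTCT, which occurred for 5 of the 6 and in 82.9% of windows. The TGIF site TGTCA was found for Tgfbr1 (other start) and Tgif1, against 40% of windows, and the SMAD palindrome GTCTAGAC in none of the 6 and in 0.167% of windows. Tgif1 and Tgfbr1 have several annotated starts and hence more letters searched than the others, and a match is a description of these letters alone.

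**Figure D1:**
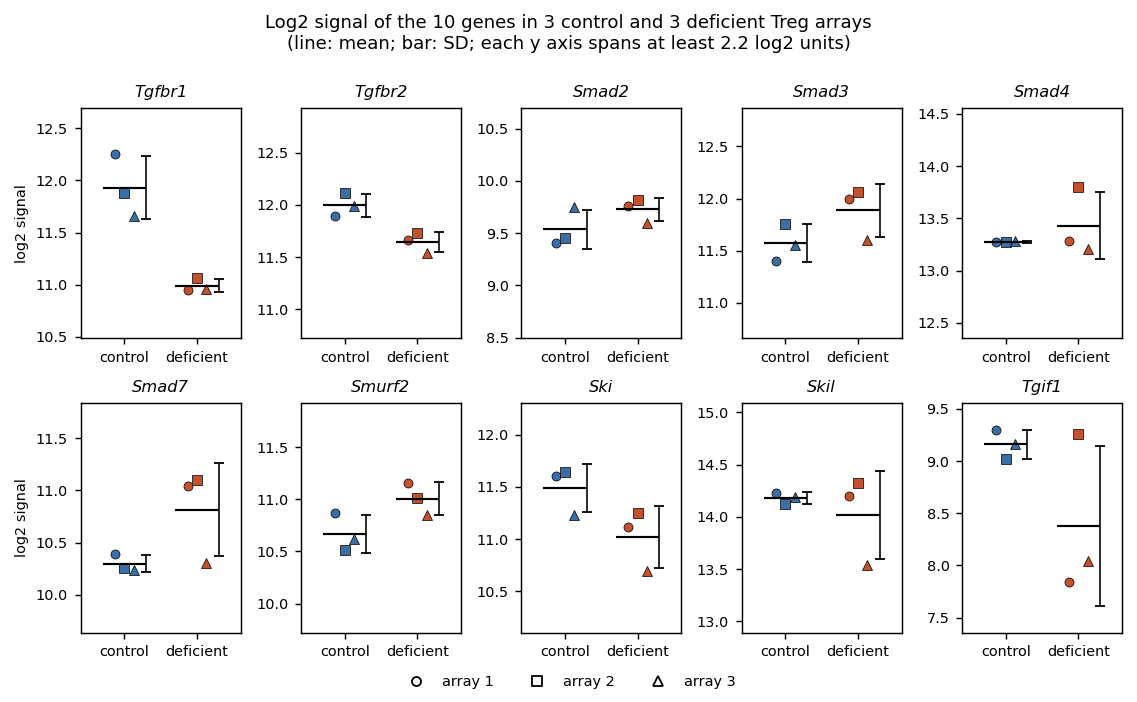
Log2 signal of each of the 10 genes (y axis, with its own range) on 3 control (blue) and 3 deficient (orange) arrays, with symbols for the array number, lines for the mean and bars for the SD. Tgfbr1 and Tgfbr2 show separate groups, the SMAD genes overlap, and 1 of the 3 deficient arrays stands away from the other 2 for Smad4, Smad7, Skil and Tgif1.

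The receptor-activated SMADs, which carry the signal from the receptor, did not pass the test. Smad2 had log2 signals of 9.41, 9.45 and 9.75 in control and 9.76, 9.82 and 9.60 in deficient arrays, a difference of 0.19 with an interval from -0.22 to 0.60 and an adjusted p = 0.777. The groups overlapped through control array 3 and deficient array 3. Smad3 had 11.40, 11.76 and 11.56 in control and 12.00, 12.06 and 11.60 in deficient arrays, a difference of 0.31 with an interval from -0.14 to 0.77 and an adjusted p = 0.617. Here deficient arrays 1 and 2 lay above all controls and deficient array 3 among them.

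Smad4, the common partner of the receptor-activated SMADs, was the most even of the members in control cells, at 13.27, 13.27 and 13.28. The deficient arrays had 13.28, 13.80 and 13.21, so that deficient array 2 alone was higher. The difference of 0.16 (interval from -0.31 to 0.62, adjusted p = 0.854) turned to -0.03 without deficient array 2. The intervals of Smad2, Smad3 and Smad4 leave room for changes of up to about the size of their upper bounds (0.60, 0.77 and 0.62), so equal levels were not shown.

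Smad7, the inhibitory SMAD that blocks receptor signaling and is itself induced by TGF-beta, had log2 signals of 10.39, 10.26 and 10.24 in control and 11.04, 11.10 and 10.30 in deficient arrays. Deficient arrays 1 and 2 lay above all controls, and deficient array 3 lay within their range. The difference was 0.52 with a standard error of 0.24, an interval from -0.03 to 1.06 and an adjusted p = 0.420. Without deficient array 3 it was 0.77 (adjusted p = 0.119), and without deficient array 2 it was 0.37 (adjusted p = 0.607). It did not pass in any of the 15 alternatives. Smurf2, a HECT ubiquitin ligase that SMAD7 brings to the receptors, had 10.87, 10.51 and 10.62 in control and 11.16, 11.01 and 10.85 in deficient arrays. Its groups overlapped by 0.02, and the difference of 0.34 (interval from -0.08 to 0.76) had an adjusted p = 0.530.

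Among the co-repressors, Ski had log2 signals of 11.60, 11.64 and 11.23 in control and 11.12, 11.25 and 10.69 in deficient arrays, a difference of -0.47 with an interval from -0.96 to 0.02 and an adjusted p = 0.417. Only the lowest control and the highest deficient value overlapped, by 0.02. Without deficient array 2 the difference was -0.585 (adjusted p = 0.331). Skil, which encodes SnoN and is a target as well as a repressor of the pathway, had 14.23, 14.12 and 14.19 in control and 14.20, 14.32 and 13.54 in deficient arrays. Deficient array 3 alone was low, and the difference of -0.16 (adjusted p = 0.873) turned to 0.08 without it. The difference without deficient array 2 was -0.31 (adjusted p = 0.661).

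Tgif1, a homeodomain protein that recruits co-repressors to SMAD complexes, depended on a single array. Its log2 signal was 9.30, 9.02 and 9.16 in control and 7.84, 9.26 and 8.04 in deficient arrays. Deficient arrays 1 and 3 lay about 1 log2 unit or more below the control mean (by 1.32 and 1.12), while deficient array 2 lay within the control range. The difference over all arrays was -0.78 with a standard error of 0.34, an interval from -1.56 to 0.0019 and an adjusted p = 0.390. Without deficient array 2 it was -1.22 with an adjusted p = 0.0209, past the threshold. Without control array 1 and deficient array 2 it was -1.15 with an adjusted p = 0.0534. Deficient array 2 is the one with the high Gzma, Klrb1c, Ncr1 and Klrd1 signals given above, and their part in its Tgif1 signal was not tested.

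Across the members, 1 of 10 was lower and 0 were higher at an adjusted p under 0.05. Of all probe sets 2.85% were called, 2.27% lower and 0.581% higher. Because each member was above the silent-gene level on all 6 arrays, the 8928 genes with a mean above that level are a closer background, and 4.07% of them were lower and 1.19% higher. The groups did not overlap for 2 of the 10 members (20%), against 18.2% of all probe sets and 26.1% of the genes above the silent-gene level, so the members' share lay near the background. At the study's threshold, an unadjusted p under 0.05 in the methods' t-test with a fold over 1.5, 1 member (Tgfbr1) passed, against 6.74% of all probe sets. The differences of the 10 members ran from -0.94 to 0.52 with a median near 0 (5 below and 5 above 0), and the median over all probe sets was 0.02. By role, the 2 receptors and the 3 co-repressors had negative differences, and the 3 transducers and the 2 inhibitors had positive ones, of which that of Tgfbr1 alone passed the test. The signs of Smad4 and Skil rested on single arrays, as given above.

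**Figure D2:**
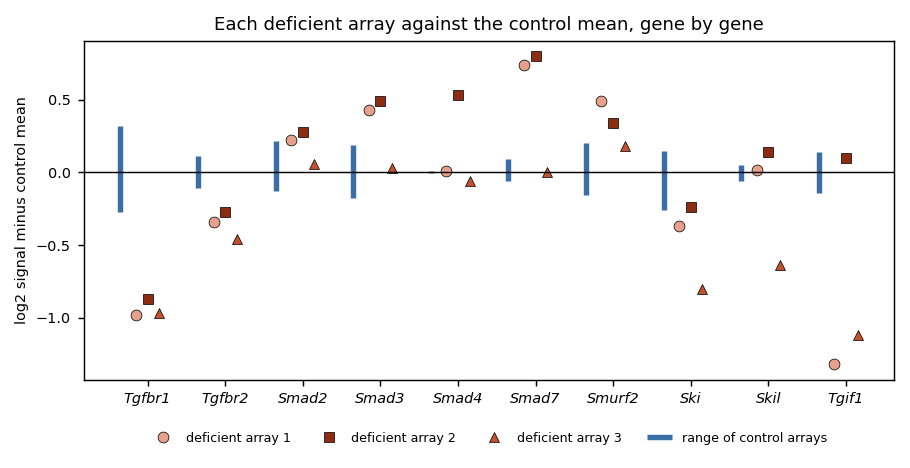
Log2 signal of each deficient array minus the mean of the 3 control arrays (y axis) for each of the 10 genes (x axis), with the range of the control arrays as a blue bar. Deficient array 2 is the highest of the 3 for 9 of 10 genes and deficient array 3 the lowest for 8 of 10.

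The order of the deficient arrays is given as a description, with no test. Deficient array 2 was the highest of its group for 9 of the 10 members and deficient array 3 the lowest for 8, as seen in the plot of each deficient array against the control mean. Among all 8928 genes above the silent-gene level these shares were 38.2% and 39.2%. Of the control arrays, array 1 was the highest for 5 members, array 2 for 3 and array 3 for 2. The genes most like Tgfbr1 over the 6 arrays, by Pearson correlation among 8927 other genes, were Slc36a4 (0.998, difference -0.95), Plin3 (0.995, -0.77) and Vps54 (0.994, -1.47). With 6 arrays in 2 groups such values describe these arrays and carry no test.

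Other genes of the pathway were read from a list of 58, of which 55 were measured. 4 were lower and 1 was higher, or 9.09% of those measured, against 2.85% of all probe sets. Among genes above the silent-gene level 4.07% were lower and 1.19% higher. That set is not like the list, of which 18 genes were at or under the silent-gene level on each array. The list was made with earlier results of these data known, so nothing is read from its share. The median difference of the 55 genes was 0.04. The largest fall was that of Itgb8, the integrin chain that together with Itgav forms the receptor releasing active TGF-beta from its latent complex. Itgb8 had log2 signals of 10.67, 9.59 and 10.05 in control and 7.80, 7.42 and 7.47 in deficient arrays, and the groups lay 1.79 apart. Its difference of -2.54 (standard error 0.28, interval from -3.17 to -1.91, or 5.82-fold lower) had an adjusted p = 0.00168, and it was called whichever array was left out. Its partners, chosen after their values were seen, gave smaller values. Itgav, the alpha chain of that integrin, had a difference of -0.68 with an adjusted p = 0.163. Lrrc32, which encodes the receptor GARP that holds latent TGF-beta on Treg cells, had -0.06 (adjusted p = 0.959), and the ligand gene Tgfb1 had -0.26 (adjusted p = 0.748). Of the other ligands, Tgfb3 had the lowest p at a difference of 0.51 (adjusted p = 0.344), with every array under the silent-gene level.

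The promoters of Itgb8 and of Nt5e, a target gene described below with the targets, are shown because both genes were lower and both windows hold a CAGA box. They are the 250 bases before the annotated starts (RefSeq, GRCm38.p6, chr12:119238277-119238526, minus strand, and chr9:88327359-88327608, plus strand), with CAGACA or its reverse complement in capitals.
Itgb8: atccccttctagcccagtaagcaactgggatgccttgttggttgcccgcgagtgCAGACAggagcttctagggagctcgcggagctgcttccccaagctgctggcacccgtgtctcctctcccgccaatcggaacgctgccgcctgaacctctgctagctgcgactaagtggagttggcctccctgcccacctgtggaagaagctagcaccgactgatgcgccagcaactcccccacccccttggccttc
Nt5e: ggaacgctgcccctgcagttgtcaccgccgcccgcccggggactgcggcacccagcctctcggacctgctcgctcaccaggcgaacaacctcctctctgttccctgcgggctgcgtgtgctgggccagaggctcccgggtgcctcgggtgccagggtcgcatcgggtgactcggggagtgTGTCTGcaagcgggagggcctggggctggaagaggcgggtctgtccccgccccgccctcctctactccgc
The match lay 190 bases before the start in Itgb8 and 64 bases before it in Nt5e. Of the 11 genes past the threshold outside the members, Ube2f included, 6 had a promoter in the table, and 2 of these held CAGACA, against 17.1% of all windows.

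Among the adaptors, phosphatase and co-factors of the pathway, 2 of 13 measured genes fell and 0 rose. Of all probe sets 2.27% were lower and 0.581% higher, and such small counts by role are not read as results about a role. Pmepa1 and Ldlrad4 encode related membrane proteins that keep receptor-activated SMADs from the type I receptor, and Pmepa1 is itself induced by TGF-beta. Pmepa1 had log2 signals of 7.78, 8.10 and 8.23 in control and 6.97, 7.05 and 6.80 in deficient arrays, a difference of -1.10 with an interval from -1.53 to -0.66 and an adjusted p = 0.0188. Ldlrad4 had 10.38, 9.86 and 10.29 in control and 8.59, 8.78 and 7.96 in deficient arrays, a difference of -1.73 with an interval from -2.31 to -1.15 and an adjusted p = 0.00845. The groups were separate for both. The call of Ldlrad4 held without any 1 array, and that of Pmepa1 held in 2 of 6 such fits (adjusted p from 0.0299 to 0.0869, lost without control array 2 or 3 or deficient array 1 or 3) and was lost with the replicate number as a block (adjusted p = 0.0573).

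Among the ubiquitin ligases and deubiquitinases of the pathway, 1 of 10 measured genes rose and 0 fell (0.581% and 2.27% of all probe sets). Nedd4l, a HECT ligase that targets activated receptor-regulated SMADs, had log2 signals of 7.80, 8.35 and 7.58 in control and 9.76, 9.15 and 9.03 in deficient arrays, all deficient values above all control values. Its difference was 1.40 (interval from 0.79 to 2.02, or 2.65-fold higher) with an adjusted p = 0.0297. The call held in 2 of the 6 fits without 1 array and was lost without control array 1 or 3 or deficient array 1 or 2 (adjusted p from 0.0367 to 0.120 over the 6).

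Of the 12 other receptors of the TGF-beta superfamily, 1 fell and 0 rose (2.27% and 0.581% of all probe sets). Bmpr2, the type II receptor of bone morphogenetic proteins, had log2 signals of 10.35, 10.48 and 10.04 in control and 9.04, 8.85 and 8.77 in deficient arrays. The groups did not overlap, and the difference of -1.40 (interval from -1.84 to -0.97) had an adjusted p = 0.00566, which stayed under the threshold whichever array was left out. Of the 4 SMADs outside the members, Smad5, a SMAD of the bone morphogenetic protein branch, had the lowest p at a difference of 0.47 (adjusted p = 0.332). Of 4 genes of the branch that signals through the kinase TAK1, Tab2, its adaptor, came lowest at -0.34 (adjusted p = 0.582).

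**Figure D3:**
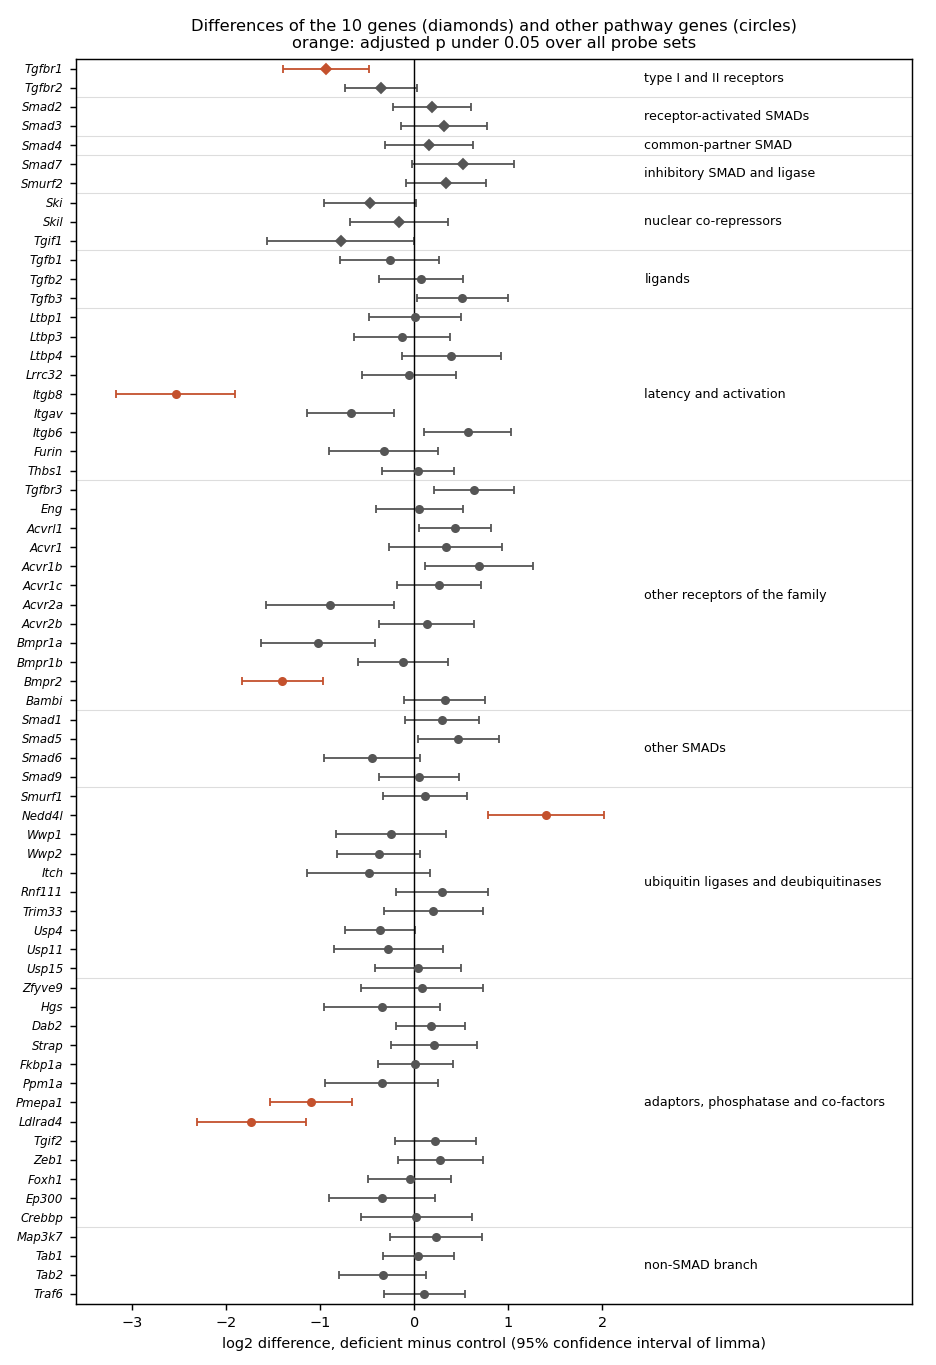
Log2 difference between deficient and control arrays (x axis) with the 95% confidence interval of limma for the 10 members (diamonds) and the 55 other measured pathway genes (circles), grouped by role (n = 3 arrays per group). Tgfbr1, Itgb8, Bmpr2, Pmepa1 and Ldlrad4 are lower and Nedd4l is higher at an adjusted p under 0.05 (orange).

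Genes known to be induced by TGF-beta were listed with results of these data known, so that their direction is no independent evidence. Of the 10 measured 3 were lower and 0 higher (2.27% and 0.581% of all probe sets), with a list median of -0.12. The list left out Smad7 (0.52), Skil (-0.16) and Pmepa1 (-1.10), described above as induced by TGF-beta or as its targets. Of these Pmepa1 alone passed the test. Itgae, the integrin chain CD103 that holds T cells in epithelia and also 1 of the Treg markers above, had log2 signals of 10.74, 10.30 and 10.88 in control and 5.42, 5.84 and 5.61 in deficient arrays (-5.02, adjusted p = 3.4e-05). The gut-homing receptor gene Gpr15 had 11.09, 9.77 and 10.78 in control and 5.46, 4.53 and 4.76 in deficient arrays (-5.63, adjusted p = 0.000131). Both genes stood close to the silent-gene level in deficient cells, so the sizes of these falls are not exact. Nt5e, the ectoenzyme CD73 that forms adenosine, had 13.48, 13.40 and 13.12 in control and 10.67, 11.02 and 10.63 in deficient arrays (-2.56, adjusted p = 0.000263). These 3 calls held without any 1 array. The other 7 genes, among them Runx3 (-0.69, adjusted p = 0.273, chosen after its values were seen), did not pass, and 4 of the 10 were at or under the silent-gene level on each array.

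Genes known to be repressed by TGF-beta were called in both directions. Of the 8 measured 1 was higher, 1 was lower and 6 did not pass, with a list median of 0.01. Of all probe sets 0.581% were higher and 2.27% lower. At or under the silent-gene level on each array were 3 of the 8. S1pr1 (0.79, adjusted p = 0.168) and Gzmb (-1.35, adjusted p = 0.255) did not pass but had separate groups. Both were chosen after their values were seen, and S1pr1 passed the study's threshold. Myc, a growth regulator that TGF-beta represses in epithelial cells, had log2 signals of 13.77, 13.63 and 13.66 in control and 14.78, 14.84 and 14.56 in deficient arrays, a rise of 1.04 (interval from 0.65 to 1.43) with an adjusted p = 0.0154. The call was lost without control array 2 or 3 or deficient array 1 (adjusted p up to 0.0726). Ifng, the effector cytokine interferon-gamma, had 7.47, 6.20 and 7.01 in control and 4.81, 4.80 and 3.65 in deficient arrays, so that each deficient value was under the silent-gene level and the size of its fall is not exact. Its difference of -2.47 (interval from -3.37 to -1.58) had an adjusted p = 0.0127 and was lost without control array 3 (adjusted p = 0.0593). Over both target lists 5 of 18 genes (27.8%) were called, against 2.85% of all probe sets, and since genes already known to differ are in these lists, nothing is read from that share.

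**Figure D4:**
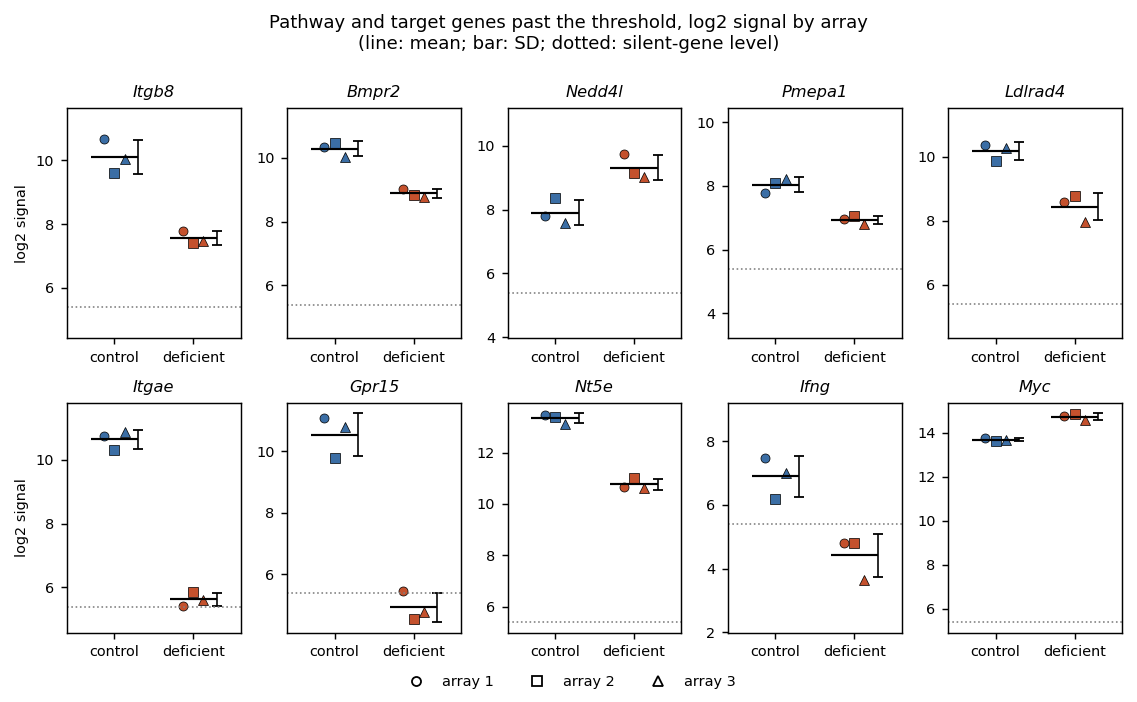
Log2 signal (y axis, with its own range) of the pathway and target genes with an adjusted p under 0.05 on 3 control (blue) and 3 deficient (orange) arrays, with the mean, the SD and the silent-gene level of 5.39 as a dotted line. The groups are separate for all 10 genes, which follows closely from choosing them by adjusted p. The share was 18.2% of all probe sets and 26.1% of genes above the silent-gene level. In deficient cells Itgae lies just above the dotted line, Gpr15 has 1 of 3 arrays above it and Ifng none.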

How the data were processed

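Treg cells were isolated as CD4+ cells with magnetic beads, sorted as CD4+YFP+ cells, and their RNA was amplified with a pico kit and hybridized to Clariom S arrays. The deposited values are log2 signals with 2 decimals for each probe set on each array, made by the authors with Affymetrix Expression Console 1.4 per the submitters' processing notes. How signals were summarised and normalized, and the log base, is not given in the sources used. The values (2.06 to 19.90) were read as log2, and another base would change folds but not signs. Samples were grouped by the genotype label. Scan dates and background signals were not used here, and the number of arrays limits the precision.

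The platform annotation paired a single gene symbol with 19572 of the 22206 probe sets. The brightest probe set stood for a symbol. Groups were compared with limma 3.58.1 in R 4.3.3 (moderated linear model with a term for group, all probe sets, no filter, Benjamini-Hochberg adjustment, threshold 0.05, 4.78 prior degrees of freedom). The fit was tested on simulated data. The study's general methods name a t-test, which was run as an alternative with adjusted p-values. The members and lists were chosen with earlier results of these data known. Named were all members, Ube2f, the listed genes past the threshold, in each role without one the gene with the lowest p, and the 3 genes most like each called member. Alternatives were array weights, centring each array on its median, quantile normalization, a robust prior with an intensity trend, the methods' t-test, a filter on the 40% dimmest probe sets, the mean of a symbol's probe sets, a replicate block, each array left out in turn, and leaving out control array 1 with deficient array 2. Promoter letters were searched on both strands in the 250 bases before each annotated start. Listed genes for which no probe set is named (among them Nrp1, Stub1, Zeb2 and Gata3) were not analysed here.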

Additional observations from a re-analysis of the deposited data

How the results depend on the processing

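Differences of the 10 members kept sign and side of the threshold in 135 of 150 values over the 15 alternatives. The call of Tgfbr1 was lost in 11, that of Tgif1 was gained in 1 (without deficient array 2), and the sign turned in 3 (Smad4 at -0.0283 without deficient array 2 and at -0.03 without control array 1 and deficient array 2, Skil at 0.08 without deficient array 3). Without 1 array, Smad4 ranged from -0.0283 to 0.27 and Skil from -0.31 to 0.08. Tgfbr1 was called with array weights, an intensity trend, the mean of probe sets and without the dimmest probe sets (adjusted p from 0.0273 to 0.0451). Members lower numbered 1, and 0 with quantile normalization, median centring, the methods' t-test, the replicate block or without control array 1 and deficient array 2 (Tgfbr1 adjusted p = 0.0598, 0.0650, 0.193, 0.0971 and 0.180). Without 1 array they numbered 0 to 1, the 1 being Tgif1, and 0 members were higher in each alternative. The cause was not tested, although leaving out arrays also leaves fewer of them. The 11 genes past the threshold outside the members, Ube2f included, kept their call in 138 of 165 values and lost it in 27. Their sign turned in 0. Their groups were separate, so leaving out arrays could not turn a sign. Named genes that were not called are not in this count, and Lrrc32 kept its sign in 11 of 15 alternatives. Lower pathway genes numbered 4 (3 to 4 without 1 array, and 3 with the replicate block, which lost Pmepa1 at an adjusted p = 0.0573) and lower target genes 4 (3 to 4), and both numbered 0 with the methods' t-test. The higher pathway gene and the higher target gene (1 each) numbered 0 with the methods' t-test, the replicate block, without control array 1 and deficient array 2, and 0 to 1 without 1 array (Nedd4l and Myc, adjusted p = 0.0510 and 0.0513 with the block). Over all probe sets 503 were lower and 129 higher, with 269 to 431 lower and 46 to 81 higher without 1 array, 5 and 1 with the methods' t-test, 70 higher with the replicate block and 50 higher without control array 1 and deficient array 2. The deviations of same-numbered arrays had correlations of -0.06, -0.24 and 0.29. These cannot show whether the arrays pair, because probe sets are not independent and deviations within a group are tied. The block was therefore run as an alternative. Signal over background and scan dates were not used here.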
